A study of Mus musculus with 8 samples.

Results

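The secreted inhibitors of Wnt signalling examined here are 9 mouse genes: the secreted frizzled-related genes Sfrp1, Sfrp2, Sfrp4, Sfrp5 and Frzb, the Wnt inhibitory factor gene Wif1, and the Dickkopf genes Dkk1, Dkk2 and Dkk3. The members were all non-control probe sets that the array's annotation assigns to 1 of these genes alone, which gave 17 probe sets of 45037, for 9 genes of 18193. The genes were brought together after their response to a Hedgehog (Hh) agonist in these same samples was known, in particular that of Sfrp2 and Sfrp1, so their differences between the groups are given as a description.

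RNA levels were read on Affymetrix Mouse430_2 arrays, 1 per sample, from mouse embryoid bodies, free-floating aggregates of embryonic stem cells. Retinoic acid (RA), which directs such bodies to a neural fate, was given at 500 nM to both groups after 2 days in suspension. The agonist group (replicates 5 to 8) received 1 uM of the Hh agonist HH-Ag in addition, and the RA group (replicates 1 to 4) received retinoic acid alone. The stem cells of both groups were the line YFP3.1 with a constitutively expressed, FLAG-tagged Gli1, a transcription factor of the Hh pathway, and were collected 3 days after differentiation. For agonist replicate 7, grouped by its title, the labels give neither the line nor that time. The samples are described as biological replicates of 1 line, and how the cultures were separated is not stated, so the spread between these samples may be partly technical.

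Wnt proteins act on cells through frizzled receptors together with the co-receptors Lrp5 and Lrp6, and in the canonical pathway this stabilises beta-catenin, which turns on target genes with Tcf and Lef factors. Sfrp proteins carry a cysteine-rich domain like that of frizzled receptors and bind Wnt proteins outside the cell, as Wif1 does through a domain of another kind, while Dkk1 binds the Lrp co-receptors. In the vertebrate neural tube Wnt ligands are made by the roof plate, opposite to the Hh source in the floor plate and notochord, and Sfrp genes are expressed in neural progenitors.

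Of the secreted inhibitors tested, only Sfrp2 was called lower with the agonist (limma adjusted p under 0.05). The promoter of Sfrp2 is shown because this gene carries the largest difference among the members. The 250 bases before its RefSeq start are chr3:83766071-83766320 on the plus strand of GRCm38.p6, and capitals mark CG dinucleotides.
Sfrp2: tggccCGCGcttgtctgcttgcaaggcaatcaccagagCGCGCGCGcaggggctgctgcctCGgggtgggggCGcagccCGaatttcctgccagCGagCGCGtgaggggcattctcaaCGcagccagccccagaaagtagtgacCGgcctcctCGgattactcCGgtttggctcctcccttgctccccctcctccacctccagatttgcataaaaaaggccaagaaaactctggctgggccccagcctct
The window holds 16 CG dinucleotides, against a median of 6 over 32851 RefSeq promoter windows of the same length, and 74.6% of those windows hold fewer. Among the 6 members with an entry (Sfrp2, Sfrp5, Frzb, Wif1, Dkk1 and Dkk2) the count ran from 6 in Dkk1 to 21 in Wif1. Windows of 250 bases before to 50 after the start were searched on both strands for the Gli consensus GACCACCCA, the Tcf/Lef sequence CTTTGAT, and 2 retinoic acid receptor repeats. The first repeat was AGGTCA followed after any 5 bases by AGGTCA, and the second was GGTTCA followed after any 5 bases by AGTTCA. None of these letters occurred in the windows of the 6 members, while 0.253%, 3.73%, 0.00913% and 0.00609% of all windows held them, in the order named.

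The arrays were close to each other in scale, with median intensities of 21.6 to 22.6. The neural progenitor markers Sox2 and Nes averaged 285.5 and 268 with the agonist and 340.3 and 261.5 with RA alone, while Sox1 was dim (18.6 and 9.71). Markers of the ventral neural tube and Hh response rose with the agonist for 5 of 8 tested genes, while Shh, Gli1 and Hhip did not pass. The summed intensity was 1200.0 to 1566 on agonist arrays, against 415 to 522 on RA arrays (9 genes). Nkx2-9 (1.51 to 3.40 on RA arrays) and Nkx6-1 (RA mean 13.5) passed the intensity filter of about 15.1, described below, through their agonist arrays. Gli1 itself averaged 21.2 ± 3.72 and 19.2 ± 1.24 (SD, n = 4 each), and whether its probe set reads the tagged transcript was not tested. The ratios of 3' to 5' control probe sets, a measure of RNA integrity, were 0.602 to 0.627 on agonist arrays and 0.609 to 0.618 on RA arrays for Gapdh (exact permutation test, two-sided p = 0.657, smallest possible 0.0286), and 1.42 to 1.54 and 1.39 to 1.53 for beta-actin (exact p = 0.714). Replicates 1 and 5 were hybridised on a first day and the other 6 arrays on a second. On the second day the agonist arrays ran on fluidics station 2 and the RA arrays on station 1, so station and group cannot be told apart there, while the first-day pair shared day, station and chip lot.

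Of the 17 probe sets, 12 were bright enough to be tested in the fit over all probe sets, which left out the dimmest 40% by mean log2(intensity + 16), those under an intensity of about 15.1. In limma's fit 3 of the 12 passed a Benjamini-Hochberg adjusted p of 0.05, 1 of Sfrp2 lower and 2 of Sfrp1 higher with the agonist. Over all 27022 tested probe sets 1.87% passed, 1.14% higher and 0.733% lower. The 4 agonist and 4 RA values did not overlap for 5 of the 17 member probe sets, against 5.6% of all 45037, and for 4 of the 12 tested ones, against 7.06% of all tested. Since the genes were chosen with this contrast known, nothing is read from these counts. The median difference of the 12 tested probe sets was 0.06 on the log2 scale, against a median of -0.005 over all tested probe sets, and 7 of the 12 lay above 0. The group thus held a large fall, smaller rises and many small differences in both directions.

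**Figure D1:**
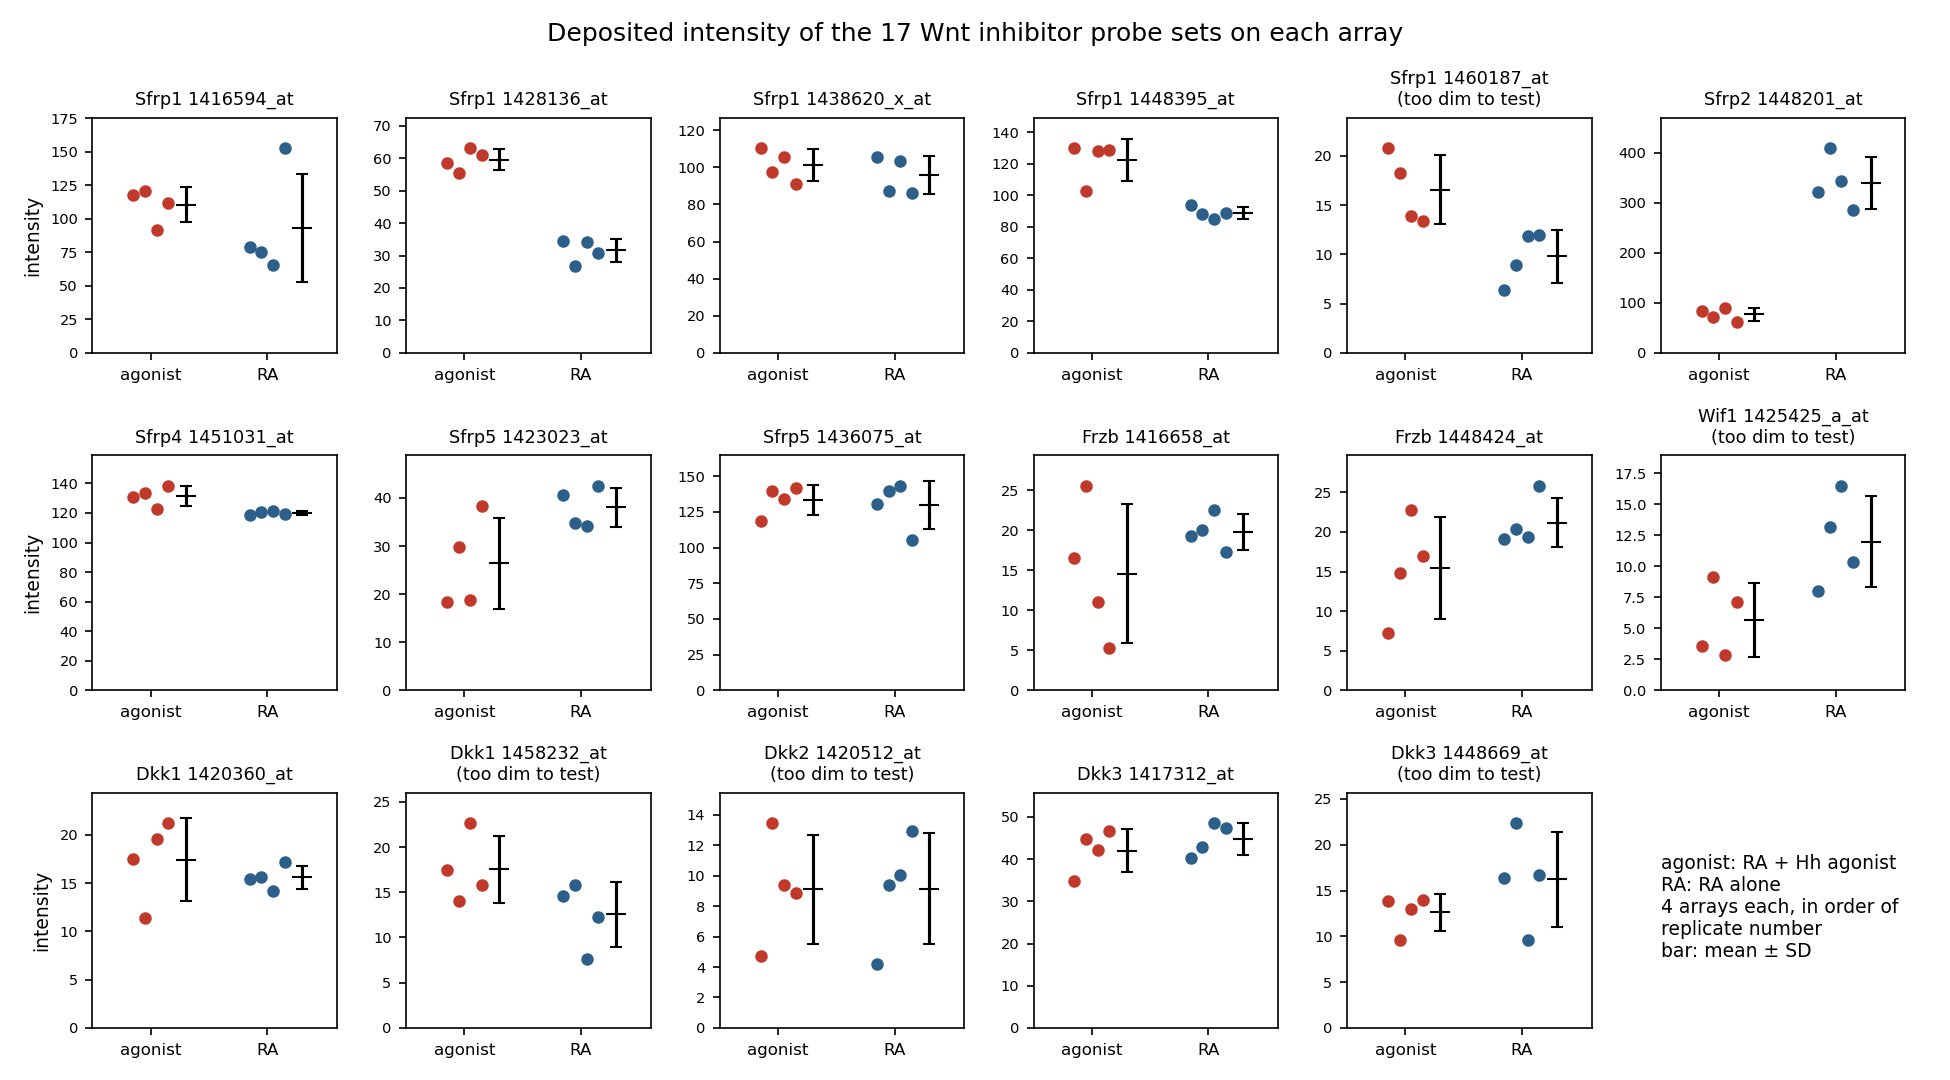
Deposited intensity (linear axis from 0, its own scale in each panel) of each of the 17 probe sets on the 4 agonist arrays (left, red) and the 4 RA arrays (right, blue), with mean and SD as a bar. Sfrp2 lay between 62.0 and 89.8 with the agonist and between 285.5 and 409.5 with RA alone, while most other panels overlap.

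Sfrp2, which encodes a secreted Wnt-binding protein of neural progenitors, had 1 probe set (1448201_at). Its intensity was 83.2, 72.6, 89.8 and 62.0 in agonist replicates 5 to 8, against 322, 409.5, 344 and 285.5 in RA replicates 1 to 4. Every agonist array lay below every RA array, and the gap between the groups was wider than the range within either. The means were 76.9 ± 12.2 with the agonist and 340.4 ± 52.05 with RA alone (SD, n = 4 each), a ratio of means of 4.43 for RA over agonist. On the log2(intensity + 16) scale the difference was -1.94 (SE 0.11), or 3.83-fold lower, the added 16 making the fold smaller than the ratio. By this difference Sfrp2 ranked 2 among 27022 probe sets ordered from the most to the least lowered. The first-day pair differed by -1.77 and the second-day arrays by -1.995, so the fall was present on both days, on the first without a replicate.

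Sfrp1, which encodes a Wnt-binding protein of the same subgroup as Sfrp2 and Sfrp5, had 5 probe sets, and they did not give 1 value. Of these, 1428136_at rose, with 58.6, 55.5, 63.1 and 61.05 in agonist replicates 5 to 8, against 34.5, 26.7, 34.3 and 30.8 in RA replicates 1 to 4. The groups lay well apart, with means of 59.55 ± 3.25 and 31.6 ± 3.645 (SD, n = 4 each), a log2 difference of 0.67 (SE 0.10). A second probe set, 1448395_at, also rose, with 130.0, 102.9, 128.2 and 129.1 in the agonist replicates and 93.9, 88.0, 85.0 and 88.8 in the RA replicates. These groups did not overlap either, though agonist replicate 6 lay below the other agonist arrays, and the log2 difference was 0.40 (SE 0.089). Its call was lost without RA replicate 2 or 3 or agonist replicate 5, 7 or 8, on the second day alone and without an intensity trend, with log2 differences of 0.37 to 0.40 there.

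The other 3 Sfrp1 probe sets did not pass or were too dim. Probe set 1416594_at had 117.9, 120.9, 91.9 and 111.6 in the agonist replicates and 79.15, 74.98, 65.3 and 152.7 in the RA replicates. RA replicate 4 was the highest of all 8 arrays while the other 3 RA arrays were the lowest, and the log2 difference was 0.27 (SE 0.17). Without RA replicate 4 the difference was 0.50 and the probe set passed. Probe set 1438620_x_at, of a class that Affymetrix marks as open to cross-hybridisation, had 91.2 to 110.3 with the agonist and 86.3 to 105.7 with RA alone, with a log2 difference of 0.07 (SE 0.093). Probe set 1460187_at fell under the filter and had 13.4 to 20.8 with the agonist and 6.40 to 11.96 with RA alone, and its groups did not overlap. All 5 thus had a positive difference, from 0.07 to 0.67 on the log2 scale, and 3 of them (1416594_at, 1448395_at and 1460187_at) cite the same source sequence in the annotation. The called pair, 1428136_at and 1448395_at, had a Pearson's r of 0.92 over the 8 arrays and of 0.42 after the group means were removed, as a description over arrays that share those group means.

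**Figure D2:**
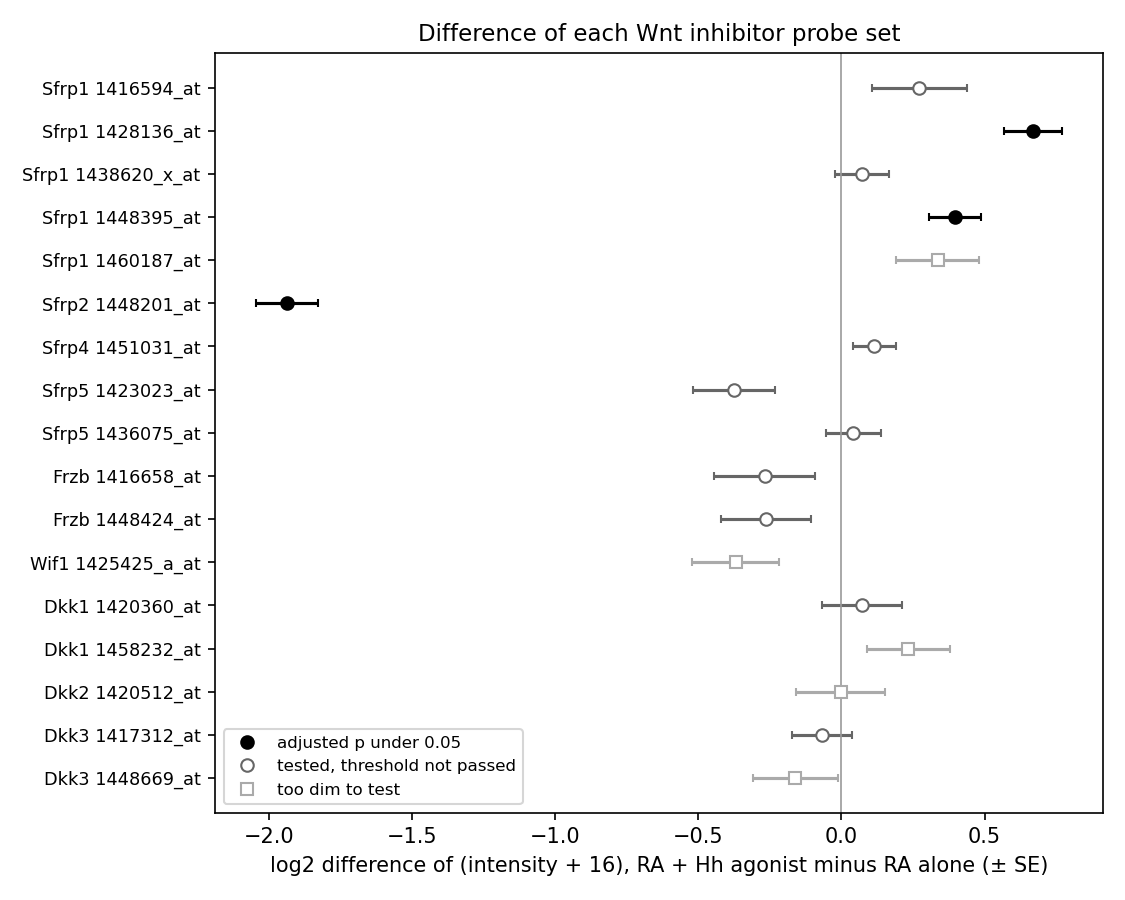
Log2 difference (agonist minus RA alone, on intensity + 16) of each probe set with its SE from limma, filled where the adjusted p was under 0.05 and square where the probe set was too dim to test. Sfrp2 stood at -1.94 and the Sfrp1 probe sets from 0.07 to 0.67, and the other genes lay between -0.37 and 0.23.

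Sfrp4 and Sfrp5 encode further secreted frizzled-related proteins. Sfrp4 (1451031_at) had 130.9, 133.6, 122.7 and 138.4 in agonist replicates 5 to 8, against 118.9, 120.4, 121.4 and 119.2 in RA replicates 1 to 4. The groups did not overlap, but the difference was small, 0.12 on the log2 scale (SE 0.077), and did not pass. The pair of Sfrp5 probe sets differed from each other. Probe set 1423023_at had 18.5, 29.9, 18.85 and 38.3 with the agonist and 40.5, 34.9, 34.3 and 42.5 with RA alone, a log2 difference of -0.37 (SE 0.14). It did not pass, and agonist replicate 8 lay within the RA range while the other 3 agonist arrays lay below it. Probe set 1436075_at had 118.4 to 141.8 with the agonist and 105.6 to 143.3 with RA alone, a difference of 0.04 (SE 0.095) that was -0.04 without RA replicate 4.

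Frzb, also named Sfrp3, encodes a Wnt-binding protein known for its role in cartilage and in the early mesoderm, and Wif1 binds Wnt proteins directly. The pair of Frzb probe sets, which cite the same source sequence, had log2 differences of -0.27 (1416658_at, SE 0.18) and -0.26 (1448424_at, SE 0.16) and did not pass. For 1416658_at the agonist arrays ran from 5.26 to 25.6 and the RA arrays from 17.3 to 22.6, and for 1448424_at from 7.22 to 22.8 and from 19.15 to 25.8. The lowest agonist array was replicate 8 for the one and replicate 5 for the other, and the pair had a Pearson's r of -0.06 over the 8 arrays. Wif1 (1425425_a_at) fell under the filter and had 3.57, 9.15, 2.86 and 7.14 with the agonist and 8.04, 13.1, 16.5 and 10.3 with RA alone. Only 1 agonist array, replicate 6, reached into the RA range, but the arrays differ here near the bottom of the scale, with a log2 difference of -0.37 (SE 0.15, fit without the filter).

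No Dickkopf probe set passed. Dkk1, which blocks the canonical pathway by binding Lrp co-receptors and is itself a Wnt target, had 11.4 to 21.2 with the agonist and 14.2 to 17.15 with RA alone by 1420360_at, a log2 difference of 0.07 (SE 0.14). Its other probe set, 1458232_at, fell under the filter, with 14.1 to 22.6 and 7.64 to 15.8. Dkk2, a relative that can inhibit or activate depending on the cell, was dim in both groups (1420512_at, 4.69 to 13.45 and 4.22 to 12.96), and its log2 difference was -0.003 (SE 0.16). Dkk3, a diverged member of the family, had 34.75 to 46.6 with the agonist and 40.3 to 48.5 with RA alone by 1417312_at, a difference of -0.07 (SE 0.11). A dimmer Dkk3 probe set that cites the same source sequence (1448669_at) was not tested and had 9.63 to 13.98 and 9.64 to 22.4. The groups overlapped for all 5 Dickkopf probe sets.

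Sfrp2 fell together with rises in neuronal genes. In bulk samples, fewer cells of a type and less RNA per cell cannot be told apart. Of 7 tested neuron markers 6 rose, with a summed intensity of 1873 to 2011 on agonist arrays and 628 to 698 on RA arrays. Dcx did not pass by its brightest probe set, though 1 of its 4 tested probe sets was called higher. Of 8 tested neural progenitor markers 1 rose and none fell. Fabp7 was the one that rose, with means of 51.1 with the agonist and 24.6 with RA alone (log2 difference 0.73, SE 0.11). The sum overlapped, at 884 to 998 on agonist arrays and 889 to 1000 on RA arrays (9 genes). Bright genes such as Sox2 and Nes weigh most in this sum, so it does not show that each marker was unchanged. Sox2 differed by -0.24 (SE 0.088) and did not pass. Of 6 markers of undifferentiated stem cells Dppa4 fell and the others did not pass, with sums of 890 to 1045 and 941 to 1253. The median log2 difference of the 6 was -0.31, while Esrrb, the brightest of them, differed by 0.03 (means of 411 and 399). None of 8 tested paraxial mesoderm and somite markers passed, with sums of 425 to 458 and 383 to 441 (10 genes), and of 7 tested mesenchyme markers Lum rose, with sums of 360.5 to 395 and 323 to 384.5 (8 genes). The call of Lum was near the threshold (limma adjusted p = 0.0486) and was lost without the filter (limma adjusted p = 0.0819). Of the 5 dorsal neural tube, 4 endoderm and 3 neural crest markers tested none passed, with sums of 406 to 444, 161 to 175 and 132 to 179 on agonist arrays and 406 to 463, 151 to 169 and 131 to 149 on RA arrays (7, 8 and 5 genes). No marker was listed at 0 on any array. The part of these shifts in the fall of Sfrp2 and the rise of Sfrp1 was not tested.

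Genes whose values followed Sfrp2 most closely were found by Pearson's r on log2 values over the 8 arrays, among 13674 other genes taken by their brightest probe set. This r is high for any gene with a steady group difference, so r after removal of the group means is given beside it. The genes were picked as the extremes of 13674 on the same 8 arrays, and that choice raises the second r in size too. Both are given as a description only. The highest were Orai1 (0.99 and 0.62), a calcium channel gene, Dek (0.99 and 0.66), a chromatin protein gene, Psrc1 (0.99 and 0.70), Rap2c (0.99 and 0.50) and Bhlhe40 (0.99 and 0.63), a transcriptional repressor gene. The lowest were Gap43 (-0.99 and -0.61), a growth cone gene, Stmn2 (-0.98 and -0.37), a tubulin-binding protein gene of neurons, and Spon1 (-0.98 and -0.21), the floor plate gene for F-spondin. For the Sfrp1 probe set 1448395_at the highest were Klhl7 (0.99 and 0.94), Osbpl10 (0.97 and 0.87), Lypd6 (0.96 and 0.84), Sdhb (0.96 and 0.83) and Col4a1 (0.95 and 0.69), a basement membrane collagen gene. Its lowest were D630023F18Rik (-0.96 and -0.89), Osbpl2 (-0.95 and -0.67) and Atl3 (-0.95 and -0.79). Of the genes listed for Sfrp2, all but Orai1 (limma adjusted p = 0.373) passed the threshold between the groups. Spon1 averaged 3.73 with RA alone and passed the filter through its agonist arrays. Of the genes listed for Sfrp1, Klhl7 and Col4a1 passed the threshold, and the others did not. Probe set 1448395_at was the brighter of the called Sfrp1 pair. Its agonist replicate 6 lay apart from the other agonist arrays, and the part of that array in these r was not tested.

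Other genes of the Wnt pathway mostly did not pass. Of 96 listed genes 93 had a single-gene probe set, 73 of these were tested by their brightest one, 2 rose, 1 fell and 70 did not pass. This is 4.11%, against 2.18% of 13675 genes tested in the same way, 1.31% higher and 0.87% lower. The median difference of the 73 genes was -0.005 on the log2 scale, against -0.006 over all genes tested. In the list of other secreted or membrane antagonists 1 of 13 tested rose. It was Shisa3, of a family known in Xenopus to hold Wnt and FGF receptors inside the cell, with 37.99, 47.96, 46.0 and 39.4 in agonist replicates 5 to 8, against 13.6, 8.90, 10.46 and 12.4 in RA replicates 1 to 4. The groups did not overlap, and this probe set passed (limma adjusted p = 1.95e-05), also without the filter and in all 17 other settings in which it was tested. Shisa3 had 2 tested probe sets, and the other did not pass. All 4 RA values lay under the intensity of about 15.1 at which the filter stood, so Shisa3 passed the filter through its agonist arrays, and the size of its difference is not well set. It was 1.10 on the log2 scale (SE 0.12) with 16 added, 0.50 with 64 added and 1.84 with 1 added. The other tested antagonists did not pass, among them Notum, an enzyme that inactivates Wnt proteins (180.7 ± 10.35 and 189.5 ± 14.4), and Igfbp4 (156 ± 5.0 and 168 ± 15.1; SD, n = 4 each).

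Of 17 tested ligand and R-spondin genes Wnt7b, a Wnt ligand gene, fell, with 28.7, 26.3, 23.5 and 27.0 in agonist replicates 5 to 8, against 38.5, 43.9, 46.1 and 41.0 in RA replicates 1 to 4. The groups did not overlap, and the log2 difference was -0.46 (SE 0.11, limma adjusted p = 0.0277). Wnt7b had 2 tested probe sets, and the other did not pass. The call was lost without any 1 of RA replicates 2, 3 and 4 and agonist replicates 6, 7 and 8, without the filter and on the second day alone, with log2 differences of -0.52 to -0.43 there. The adjusted p in limma ran from 0.0201 to 0.0987 over 18 settings. Wnt9b had 301 ± 39.2 and 259 ± 45.9, and Wls, which carries Wnt proteins to the cell surface, had 114 ± 21.5 and 138 ± 13.8. Both differences missed the threshold (limma adjusted p = 0.467 and 0.335).

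Of 16 tested receptor genes Fzd3, a frizzled receptor known in the mouse for axon guidance, rose, with 113.1, 107.8, 127.9 and 110.5 in agonist replicates 5 to 8, against 85.8, 84.6, 85.2 and 85.3 in RA replicates 1 to 4. The RA arrays lay within a narrow band below all agonist arrays, and the log2 difference was 0.37 (SE 0.083, limma adjusted p = 0.0261). Fzd3 had 4 tested probe sets, and the others did not pass. The call was lost without any 1 of RA replicates 1 and 2 and agonist replicates 5 to 8, without an intensity trend and on the second day alone, with log2 differences of 0.32 to 0.39 there. The adjusted p in limma ran from 0.0113 to 0.129 over 18 settings. Ror1 had 168 ± 5.38 and 167 ± 20.35, and Lgr4, a receptor for R-spondins, 161 ± 11.25 and 162 ± 4.68. None of 15 tested transducers passed, among them Ctnnb1, the beta-catenin gene, with 1093 ± 47.0 and 1098 ± 86.75 and a log2 difference of -0.003 (SE 0.056), and Tcf7l1, with 419 ± 51.2 and 464 ± 73.9.

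None of 12 tested Wnt target genes passed in limma, at a median difference of -0.11 on the log2 scale. The groups did not overlap for 2 of the 12, Msx2 among them, against 7.06% of all tested probe sets. Axin2, a feedback inhibitor induced by canonical signalling in many tissues, had 27.6 ± 8.10 with the agonist and 36.65 ± 8.80 with RA alone (log2 difference -0.28, SE 0.15, limma adjusted p = 0.497). Sp5, a direct target gene, had 32.4 ± 4.90 and 42.9 ± 8.49 (-0.28, SE 0.12, limma adjusted p = 0.374). Msx2 came nearest to the threshold, with 26.6 ± 4.08 and 45.9 ± 11.8 (-0.52, SE 0.14, limma adjusted p = 0.0588), and these 3 genes were picked after their values were seen. Ccnd1 had 134 ± 20.55 and 121 ± 13.25, and Nkd2 69.85 ± 7.12 and 70.9 ± 15.8.

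**Figure D3:**
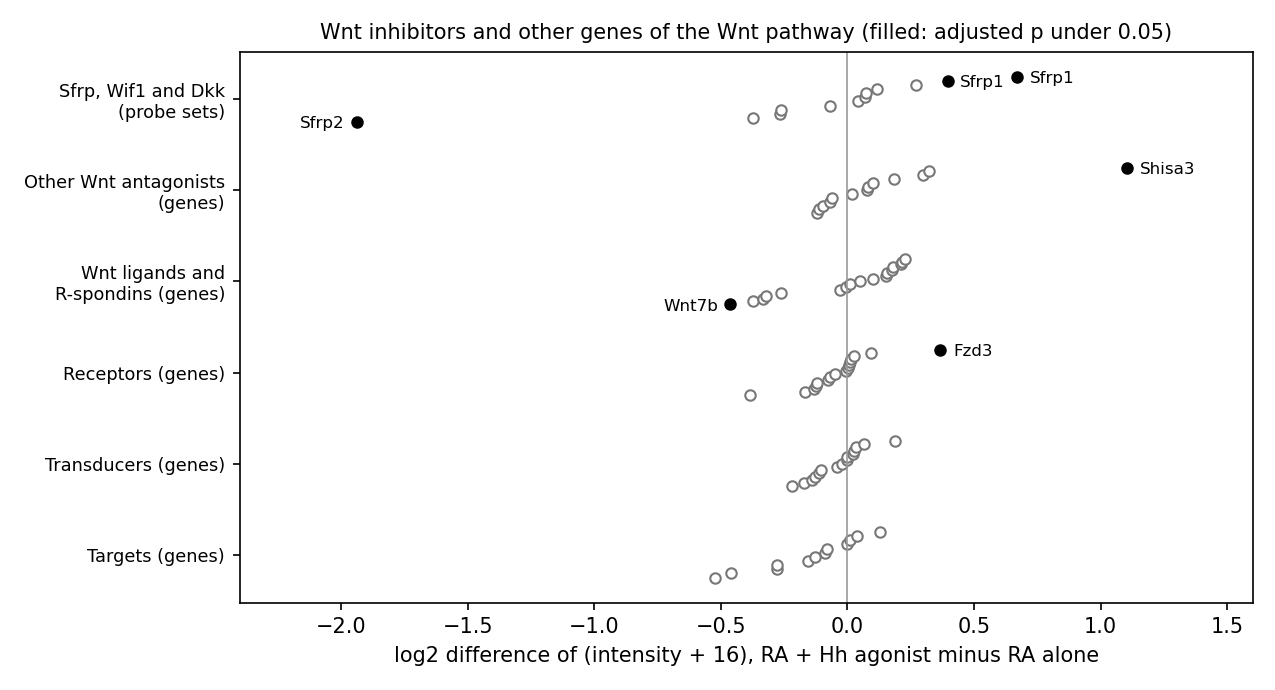
Log2 difference (agonist minus RA alone, on intensity + 16) of the tested Wnt inhibitor probe sets in the top row and of tested genes of the other Wnt pathway lists below, 1 point each, filled where the adjusted p was under 0.05. Sfrp2 lay at -1.94 and Shisa3 at 1.10, the second a size that depends on the value added, since its RA values were under the filter.

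The calls of Sfrp2 and of Sfrp1 by 1428136_at held in all 18 other settings of the fit over all probe sets, with log2 differences of -2.13 to -1.52 and of 0.37 to 0.90. The ends of both ranges came from adding 1 or 64 in place of 16 to the intensities. The Sfrp1 probe set 1448395_at passed in 11 of the 18 and 1416594_at in 1.

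**Figure D4:**
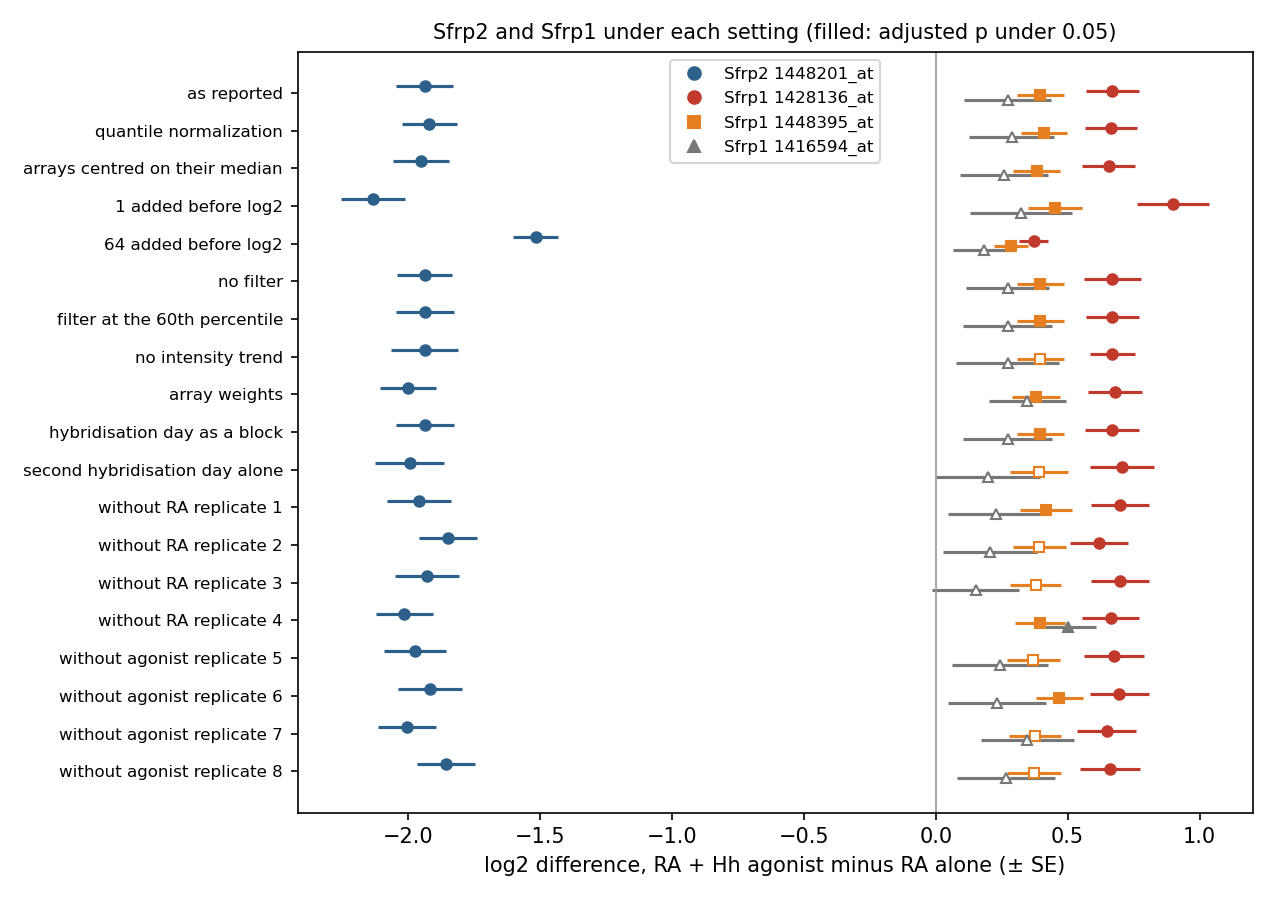
Log2 difference (agonist minus RA alone, ± SE) of Sfrp2 and 3 Sfrp1 probe sets as reported and in 18 other settings of the fit, filled where the adjusted p was under 0.05. Sfrp2 stayed between -2.13 and -1.52, and 1416594_at of Sfrp1 passed without RA replicate 4 only.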

How the data were processed

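Total RNA of 8 samples was hybridised to 1-colour arrays. The deposited value table gives each probe set a linear intensity on every array, summarised by the authors. How they summarised, background-corrected and normalized it is not stated, and no detection calls were used. Between 62 and 88 values per array were exactly 0. Per the file headers, instrument records gave the hybridisation day, fluidics station and chip lot. Groups and replicate numbers come from the sample titles.

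The authors' scaling was kept and 64 control probe sets were left out. Values were turned into log2(intensity + 16), and 27022 of 45037 probe sets above the 40th percentile of mean log2 value were tested. Groups were compared with limma 3.58.1 in R 4.3.3 (lmFit, eBayes with an intensity trend, two-sided, p-values adjusted by Benjamini-Hochberg across the 27022, threshold 0.05). Pathway and marker genes were represented by their brightest single-gene probe set, of 34945 such probe sets, with symbols updated through a RefSeq gene table. Of the pathway genes 3 had no such probe set and were not analysed here. On simulated data of 27022 probe sets for this comparison, the fit recovered 48% of changes of 0.5 on the log2 scale, 91% of changes of 1 and 100% of changes of 2. The simulated noise was normal and independent, with each probe set's own mean and fitted spread and no effect of day or station. Recovery in the real data may thus differ.

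Named were all members, the genes most like a called member, every called pathway gene and the 2 brightest uncalled genes of each pathway list. Axin2, Sp5 and Msx2 lie outside this rule and were added after their values were seen, and Gli1 and a few marker genes are named as checks of the samples. Members and lists were chosen with earlier results of these data known. Alternatives were 2 other scalings, 1 or 64 added, other filters, no trend, array weights, the hybridisation day as a block or the second day alone, and leaving out each array. Promoter sequences are from RefSeq (GRCm38.p6). Tables and plots used Python 3.11.15, pandas 2.3.3, scipy 1.17.1 and matplotlib 3.10.9.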

Additional observations from a re-analysis of the deposited data

Results flagged for a closer look

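For each of the 17 member probe sets and the 3 called pathway genes, the highest and the lowest array of each group of 4 were compared with the others by Dixon's ratio of gap to range, 40 groups in all, of which chance flags about 1 in 20. The agonist value of replicate 6 for Sfrp1 by 1448395_at, 102.9, lay apart from the other agonist arrays, at 128.2 to 130.0 (ratio 0.935). The RA value of replicate 4 for Sfrp1 by 1416594_at, 152.7, lay apart from the other RA arrays, at 65.3 to 79.15 (ratio 0.842).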

How the results depend on the processing

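The member probe sets called numbered 2 to 4 when 1 array was left out, against 3 as reported, and 2 or 3 in every other setting run. The other Wnt pathway genes called numbered 1 to 3 with 1 array left out, against 3 as reported: 1 was called without RA replicate 2 or agonist replicate 6, 7 or 8. In every other setting run they numbered 2 to 4. The count was 4, with 2 lower, under quantile normalization, with arrays centred on their median and with the hybridisation day as a block. Over all probe sets 506 were called, 264 without an intensity trend, 266 on the second hybridisation day alone, which has fewer arrays, and 298 to 615 with 1 array left out. For the change without a trend and with each array the cause was not tested. None of the called members or pathway genes changed direction in any setting. No paired analysis was possible because the groups share no replicate number. The number of arrays limits the precision, and without detection calls it was not tested how far low values, such as those of Wif1, Dkk2 and the RA arrays of Shisa3, lie above background.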
